A study of Mus musculus with 6 samples.

Results

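The genes described here are 6 EGF family ligands (Areg, Ereg, Btc, Hbegf, Tgfa and Nrg1), 3 ERBB receptors (Egfr, Erbb2 and Erbb3) and the receptor inhibitor Errfi1. They were taken by name from the deposited gene tables, which list 43043 genes, so that 10 genes of 43043 are treated. For 9 of them the name matched exactly. Nrg1 is listed in 2 rows, as Nrg1_1 and Nrg1_2. The row Nrg1_2 had 0 reads in all 6 samples, and Nrg1_1 is called Nrg1 below. The samples come from D4M-3A, a mouse melanoma cell line grown in culture. The 3 control samples (Ctrl) had been transduced with an empty CRISPR-Cas9 construct by lentivirus. The 3 Nfkbiz KO samples carried a CRISPR-Cas9 construct against Nfkbiz, the gene of the transcriptional co-regulator IκBζ. Whether the knockout cells were a clone or a pool is not given in the sources used here. The comparison asks which transcripts differ in melanoma cells when IκBζ is lost.

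EGF family ligands are made as membrane-anchored precursors and are released by proteases such as ADAM17 and ADAM10. Areg and Tgfa bind EGFR, Ereg, Btc and Hbegf bind both EGFR and ERBB4, and Nrg1 binds ERBB3 and ERBB4. ERBB2 has no known ligand of its own and acts as a partner of the other receptors. Receptor activation feeds the RAS-ERK pathway, and ERRFI1 (also called MIG6) binds the receptor kinase domain and inhibits it.

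The targeted gene Nfkbiz was lower in every Nfkbiz KO sample than in any Ctrl sample. It had 69.1, 75.2 and 63.4 TPM (a level scaled for transcript length and sequencing depth) in Ctrl and 34.8, 34.7 and 35.1 TPM in Nfkbiz KO. Transcripts remained, and these values count edited and unedited RNA alike and do not measure protein. Between 32219900 and 44927203 reads were counted on genes per sample. Pairs of Ctrl samples differed more in their counts (chi-square over degrees of freedom 25.8 to 65.9, against 3.41 to 5.89 for pairs within Nfkbiz KO). Without Ctrl replicate 1, which was in both of the widest pairs, 6 of the 10 genes were changed, as with all samples. A count of 0 allows up to 0.0666 to 0.0921 CPM (reads scaled for depth), which covers counting error only. The melanoma label was checked against 7 melanocyte lineage genes (Mitf, Sox10, Tyr, Tyrp1, Dct, Pmel and Mlana). Their summed level was 1.11 to 1.74 TPM in Ctrl and 1.27 to 1.68 TPM in Nfkbiz KO. Sox10 and Tyr had 0 reads in all samples, and 6 of the 7 stayed under 1 TPM in every sample, so that these defining markers are nearly absent here. Of 5 fibroblast markers, Col1a1 and Dcn fell, and the summed level of the list was 428.9 to 495.1 TPM in Ctrl against 340.5 to 375.1 TPM in Nfkbiz KO. The drop of the sum lay mostly in Col1a1, with means of 367.2 TPM in Ctrl against 262.8 TPM in the knockout. Pdgfra and Pdgfrb did not pass the test, with log2 fold changes of 0.0019 and 0.05, and Lum was under 1 TPM throughout. Of 3 endothelial markers, Cdh5 rose, and the summed level was 0.53 to 0.806 TPM in Ctrl and 1.31 to 1.83 TPM in Nfkbiz KO. The rise of the sum lay mostly in Cdh5, with means of 0.548 TPM in Ctrl and 1.54 TPM in the knockout. Pecam1 did not pass the test, with a log2 fold change of -0.16, and Kdr had 13 reads over all samples and was not tested. The 5 leukocyte, 2 epithelial and 4 keratinocyte markers reached at most 0.0643, 0.0787 and 3.49 TPM in sum. Of these genes only the keratinocyte marker Krt10 had enough reads to be tested. It did not pass the test, with a log2 fold change of -0.40. The part of these lists in the results below was not tested. In such bulk RNA, fewer cells of a type and less RNA per cell cannot be told apart.

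Of the 10 genes, 9 passed the filter on low counts and were tested in a fit over 14419 genes. Genes whose adjusted p was at most 0.05 were called changed. Adjusted p values come from edgeR's quasi-likelihood test on read counts, adjusted by Benjamini-Hochberg over the whole table. By this rule 6 genes changed, namely Btc, Ereg and Hbegf upwards and Tgfa, Egfr and Areg downwards. Of all genes tested, 36.6% were changed, 18.2% upwards and 18.4% downwards. In these 6 genes the CPM values of the 2 groups did not overlap, which was the case for 48.4% of all genes tested. For each of the 6, the two-sided exact permutation test gave p = 0.1, and 3 samples against 3 can give no smaller value. A fold change above 2 was reached by 3 of them (Btc, Tgfa and Egfr), against 5.92% of all genes tested. With the study's further cut-off of 4 on the difference of the means, taken here in TPM, 1 gene was left, Btc, against 1.79% of all genes tested. Btc belongs to a list of genes that the study itself selected on these samples, so that its direction is not independent evidence. All 10 genes were chosen with earlier results of these data known, so that their counts beside those of all genes are a description.

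**Figure D1:**
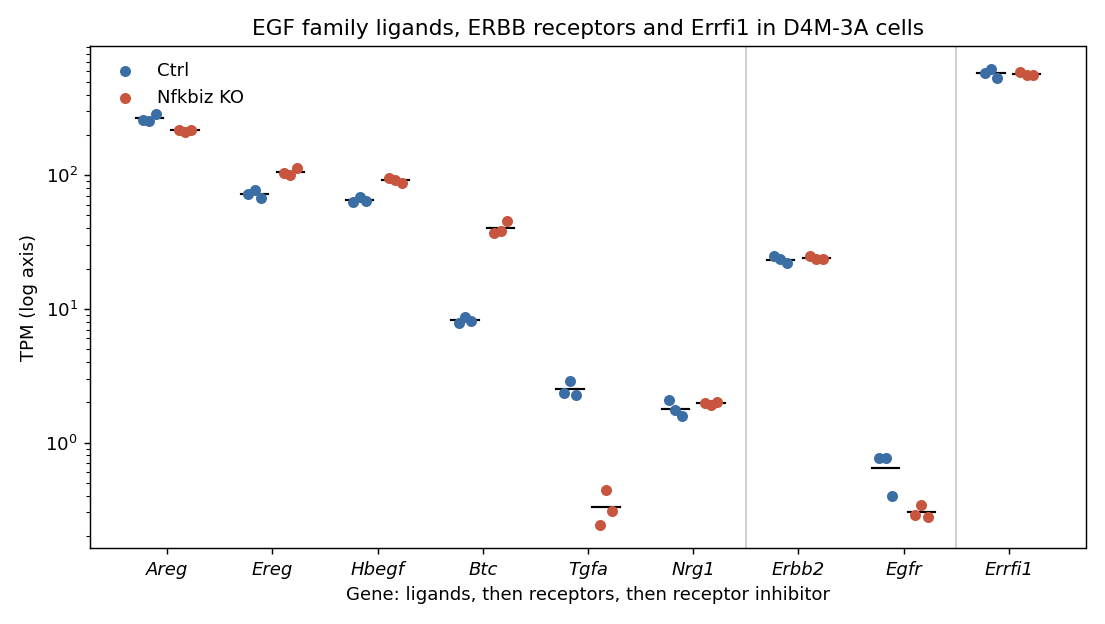
TPM on a log axis of 9 genes in each of the 3 Ctrl (blue) and 3 Nfkbiz KO (red) samples, with black lines at the group means. The Btc points of Nfkbiz KO sit between 36.8 and 45 TPM, above all Ctrl points, and those of Tgfa between 0.24 and 0.444 TPM, below all Ctrl points. Erbb3 is left out because it was listed at 0 TPM in some samples.

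Betacellulin (Btc), a ligand of EGFR and ERBB4, showed the largest fold increase among the 9 genes tested. It had 7.85, 8.71 and 8.17 TPM in Ctrl replicates 1, 2 and 3, and 36.8, 38.1 and 45 TPM in Nfkbiz KO replicates 1, 2 and 3. The lowest Nfkbiz KO value was thus well above the highest Ctrl value. Its reads rose from 379, 435 and 506 to 1537, 1973 and 2620. The fold change from read counts was 4.51, a log2 fold change of 2.17 ± 0.084 (SE, edgeR adjusted p = 2.99e-09). This was rank 58 of all genes tested by log2 fold change from the top.

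Epiregulin (Ereg) and HB-EGF (Hbegf), which also bind both EGFR and ERBB4, rose by less. Ereg stood at 71.8, 76.9 and 67.8 TPM in the Ctrl samples and at 102.8, 100.4 and 112.2 TPM in the Nfkbiz KO samples. The groups did not overlap, and the log2 fold change was 0.44 ± 0.058 (SE, edgeR adjusted p = 8.38e-05). Hbegf stood at 62.9, 68.3 and 63.7 TPM in the Ctrl samples and at 94.6, 91.3 and 87.8 TPM in the Nfkbiz KO samples. All Nfkbiz KO samples again lay above all Ctrl samples, with a log2 fold change of 0.39 ± 0.052 (SE, edgeR adjusted p = 8.71e-05). Both increases stayed under a fold change of 1.5, at 1.35 for Ereg and 1.31 for Hbegf.

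Transforming growth factor alpha (Tgfa), a ligand of EGFR, showed the largest fold decrease among the 9 genes tested. It stood at 2.34, 2.9 and 2.29 TPM in the Ctrl samples and at 0.24, 0.444 and 0.305 TPM in the Nfkbiz KO samples. In reads this was 165, 216 and 202 against 16, 32 and 26. Every Nfkbiz KO sample was far below every Ctrl sample. The level was 8.04-fold lower in the knockout, which is a log2 fold change of -3.01 ± 0.20 (SE, edgeR adjusted p = 2.49e-07), and rank 34 of all genes tested from the bottom. Because the gene was low in both groups, the difference of the means was -2.18 TPM and stayed inside the cut-off of 4.

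Amphiregulin (Areg), another ligand of EGFR, was the most abundant ligand in both groups and fell moderately. It stood at 256.6, 254.8 and 284.1 TPM in the Ctrl samples and at 217.1, 210.8 and 219.1 TPM in the Nfkbiz KO samples. The groups did not overlap, and the log2 fold change was -0.42 ± 0.068 (SE, edgeR adjusted p = 0.000389). In absolute terms this was the largest difference among the ligands, at -49.5 TPM, followed by 32.9 TPM for Ereg and 31.7 TPM for Btc. Neuregulin 1 (Nrg1), a ligand of ERBB3 and ERBB4, stood at 2.07, 1.74 and 1.58 TPM in the Ctrl samples and at 1.97, 1.91 and 2 TPM in the Nfkbiz KO samples. These groups overlapped. Its log2 fold change was -0.06, with a 95% confidence interval from -0.29 to 0.17 (adjusted p = 0.70 by edgeR).

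Among the receptors, Egfr was low and fell, whereas Erbb2 did not pass the test. Egfr stood at 0.764, 0.768 and 0.401 TPM in the Ctrl samples and at 0.285, 0.341 and 0.28 TPM in the Nfkbiz KO samples. Ctrl replicate 3 was the lowest of its group and lay close to the highest Nfkbiz KO sample. In reads this was 108, 117 and 83 against 41, 50 and 53. The log2 fold change was -1.14 ± 0.22 (SE, edgeR adjusted p = 0.00169), which on the scale of log2(TPM + 1) was -0.33 and was not called (adjusted p = 0.0568 by limma). Erbb2, the receptor without a known ligand, stood at 24.7, 23.4 and 22 TPM in the Ctrl samples and at 24.7, 23.5 and 23.5 TPM in the Nfkbiz KO samples. Its log2 fold change was -0.07, with a 95% confidence interval from -0.20 to 0.06 (adjusted p = 0.413 by edgeR). Erbb3, a receptor of neuregulins with little kinase activity, had 1, 0 and 1 reads in Ctrl and 7, 0 and 4 reads in Nfkbiz KO. It did not pass the filter on low counts and was not tested.

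The receptor inhibitor Errfi1 was the most abundant of the 10 genes. It stood at 578.3, 624 and 535.2 TPM in the Ctrl samples and at 589.1, 559.1 and 563.9 TPM in the Nfkbiz KO samples, and the groups overlapped. Its log2 fold change was -0.11, with a 95% confidence interval from -0.24 to 0.01 (adjusted p = 0.148 by edgeR). Without Ctrl replicate 3 it was called lower, with a log2 fold change of -0.15 (adjusted p = 0.00702 by edgeR), and 7 genes were changed.

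TPM is corrected for transcript length, so that levels of different genes can be set side by side. In Ctrl the order from the highest mean was Errfi1, Areg, Ereg, Hbegf, Erbb2, Btc, Tgfa, Nrg1, Egfr and Erbb3. Ereg and Hbegf overlapped in range there, and no other neighbours in this order did. In Nfkbiz KO the order was Errfi1, Areg, Ereg, Hbegf, Btc, Erbb2, Nrg1, Tgfa, Egfr and Erbb3. There the ranges of Tgfa and Egfr overlapped, while those of Ereg and Hbegf did not. Btc thus stood below Erbb2 in every Ctrl sample and above it in every Nfkbiz KO sample. Tgfa stood above Nrg1 in Ctrl and below it in Nfkbiz KO.

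The ligand transcripts as a whole had another composition in Nfkbiz KO. Over the 6 ligands above and Egf, Epgn, Nrg2, Nrg3 and Nrg4, the Ctrl samples summed to 416.6 ± 12.2 TPM and the Nfkbiz KO samples to 457.8 ± 11.7 TPM (mean ± SD of 3 samples). Areg made up 63.3%, 61.4% and 66.1% of this sum in Ctrl and 47.5%, 47.2% and 46.6% in Nfkbiz KO. Btc made up 1.94%, 2.1% and 1.9% in Ctrl and 8.06%, 8.54% and 9.58% in Nfkbiz KO. The share of Areg was thus lower, and that of Btc higher, in every Nfkbiz KO sample. The mean share of Ereg was 17.3% in Ctrl and 22.9% in Nfkbiz KO, and that of Hbegf was 15.6% and 19.9%. Tgfa took 0.602% of the sum in Ctrl and 0.0723% in Nfkbiz KO. The ratio of Areg to Btc was 32.2 ± 2.78 in Ctrl against 5.43 ± 0.519 in the knockout (mean ± SD of 3 samples). No test was run on these shares, which are a description. On log2(TPM + 1) the median log2 fold change over all genes tested was 0.06, against -0.02 from read counts. How much of the difference in summed ligand TPM reflects this shift was not tested. The summed level of Egfr, Erbb2, Erbb3 and Erbb4 was 24 ± 1.52 TPM in Ctrl against 24.2 ± 0.748 TPM in the knockout, of which Erbb2 held 97.3 ± 0.74% and 98.5 ± 0.159% (mean ± SD of 3 samples).

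**Figure D2:**
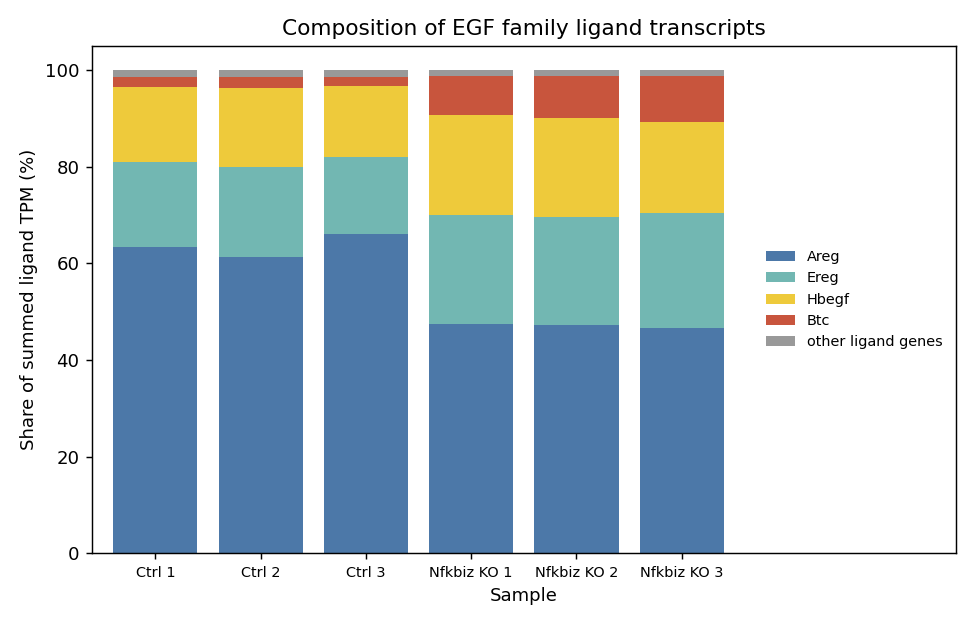
Share in percent of ligand genes in the summed ligand TPM, 1 bar per sample. Areg, Ereg, Hbegf and Btc are drawn singly, and the other ligand genes together in gray. Areg takes 61.4% to 66.1% in the 3 Ctrl samples and 46.6% to 47.5% in the 3 Nfkbiz KO samples, while Btc takes 1.9% to 2.1% and 8.06% to 9.58%.

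Pathway genes other than the 10 were described by role from lists of 43 genes, of which 39 were tested. The lists too were chosen with earlier results of these data known. Of these 39, 21 were changed, 15 upwards and 6 downwards, where 36.6% of all genes tested were changed, 18.2% upwards and 18.4% downwards. Their median log2 fold change was 0.11 against -0.02 over all genes tested. On log2(TPM + 1) limma called 13 of them, 11 upwards and 2 downwards, and it also called more of all genes upwards, 3004 of 4331. Without Nfkbiz KO replicate 1 or without Nfkbiz KO replicate 3, 13 were changed by edgeR, and the count over all genes also fell, from 5274 to 3803 and 3798.

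Of 6 further family genes (Egf, Epgn, Nrg2, Nrg3, Nrg4 and the receptor gene Erbb4), 3 were tested and 1 changed, Nrg2, a neuregulin. Nrg2 stood at 1.17, 0.95 and 1.1 TPM in the Ctrl samples and at 2.99, 3.12 and 3.03 TPM in the Nfkbiz KO samples, with a log2 fold change of 1.27 ± 0.18 (SE, edgeR adjusted p = 0.000179). Its groups did not overlap. It lay below Nrg1 in every Ctrl sample and above it in every Nfkbiz KO sample. Epgn, Nrg3 and Erbb4 had 21, 16 and 3 reads over all 6 samples and were not tested. Of 5 genes of ligand shedding and its trafficking, 3 fell and none rose, where 18.4% of all genes tested fell. These were Rhbdf2 and Rhbdf1, which encode the iRhom proteins that carry ADAM17 to the cell surface, and Adam17 itself. Their log2 fold changes were -0.30, -0.23 and -0.18 (adjusted p = 0.00272, 0.0231 and 0.0172 by edgeR). Adam10 and Rhbdl2 did not pass the test, with log2 fold changes of 0.08 and 0.46.

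Of 11 adaptors and signal transducers, 10 were tested, 4 rose and 1 fell, against the same shares of 18.2% and 18.4% over all genes. The largest changes were those of Gab2 and Gab1, docking proteins, and Sos1, an exchange factor of RAS, with log2 fold changes of 0.48, 0.32 and 0.29 (adjusted p = 0.00144, 0.0145 and 0.0137 by edgeR). Of 8 negative regulators of the receptors, 3 rose and 1 fell, again against 18.2% and 18.4%. Lrig1, which promotes the degradation of ERBB receptors, stood at 241.8, 244.5 and 199.2 TPM in the Ctrl samples and at 186.5, 186.3 and 179.8 TPM in the Nfkbiz KO samples. Its log2 fold change was -0.42 ± 0.064 (SE, edgeR adjusted p = 0.000284). Lrig3, a relative of Lrig1, and Ptpn1, a tyrosine phosphatase, rose by 0.36 and 0.23 on the log2 scale (adjusted p = 0.015 and 0.0127 by edgeR).

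Of 13 genes known to be induced by ERK signaling, 7 rose, 1 fell and 5 did not pass the test, where 18.2% of all genes tested rose and 18.4% fell. Spry1, a feedback inhibitor of the pathway, had 0.755 ± 0.091 TPM in Ctrl against 1.42 ± 0.224 TPM in the knockout (mean ± SD of 3 samples), with a log2 fold change of 0.78 (adjusted p = 0.0352 by edgeR). Dusp5, an ERK phosphatase, stood at 110.1, 92.97 and 93.2 TPM in the Ctrl samples and at 150.8, 147.6 and 145 TPM in the Nfkbiz KO samples, with a log2 fold change of 0.49 (adjusted p = 0.000126 by edgeR). Spry4, another feedback inhibitor, had a log2 fold change of 0.41 (adjusted p = 0.000175 by edgeR). The gene that fell was Etv4, a transcription factor, with a log2 fold change of -0.30. Dusp6 and Spred2, also feedback inhibitors, did not pass the test, with log2 fold changes of -0.14 and -0.0027. Of the reads on Dusp5, 88.3% mapped uniquely, and of those on Fosl1, which also rose, 50.3%. With uniquely mapped reads only, 15 genes of all the pathway lists rose and 6 fell, as with all reads.

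**Figure D3:**
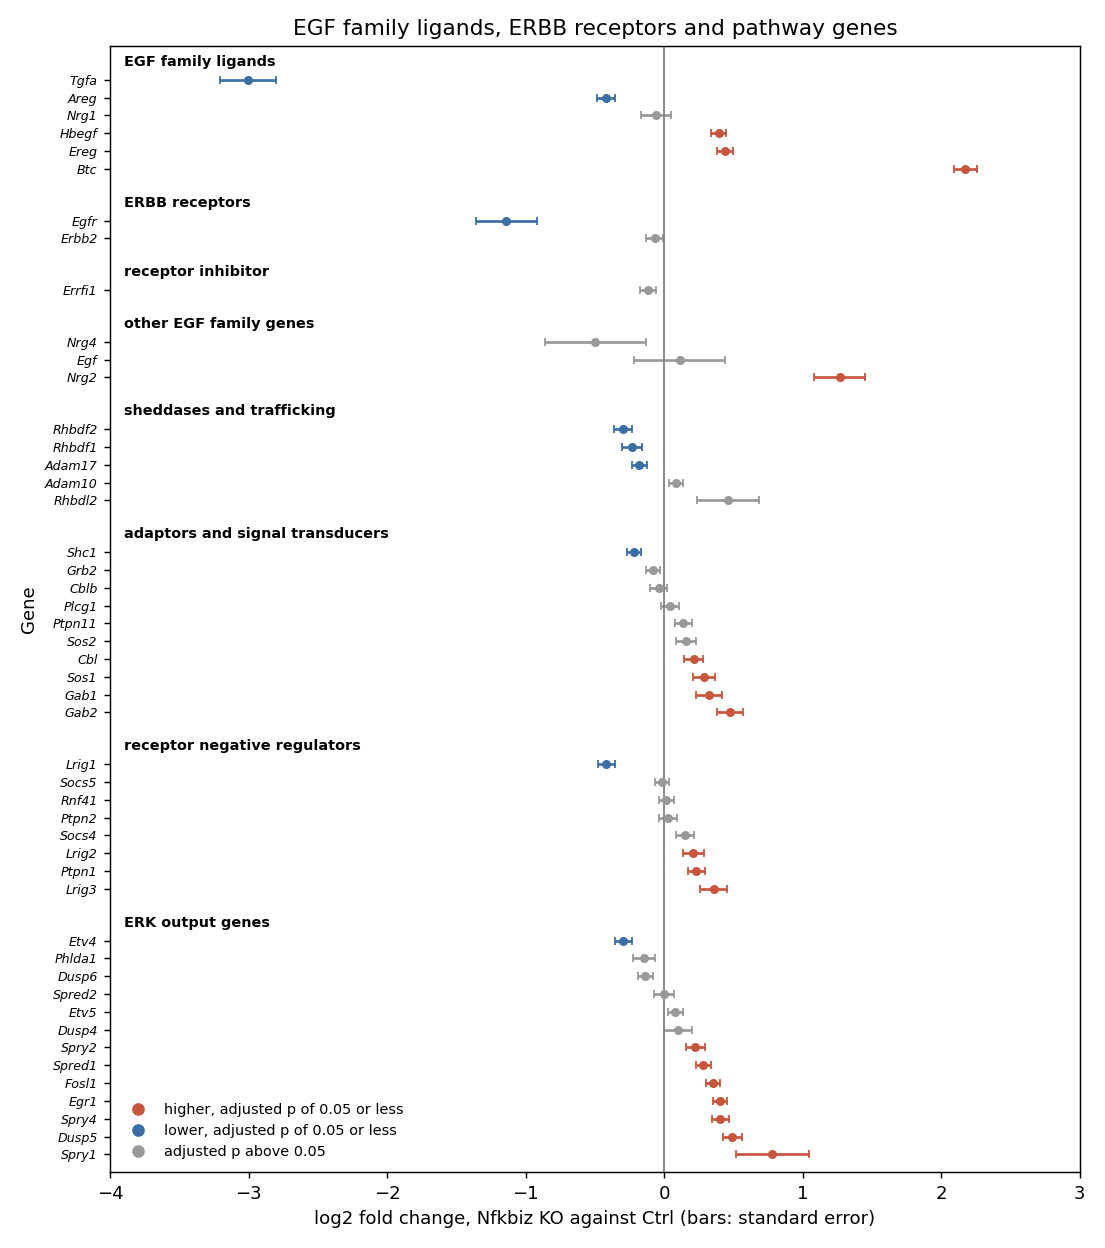
Log2 fold change of Nfkbiz KO against Ctrl with its standard error for the 9 tested genes described above and 39 tested pathway genes, grouped by role. Red and blue mark genes with an adjusted p of 0.05 or less, and gray marks the others. Tgfa at -3.01 and Btc at 2.17 lie farthest from 0.

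The genes of 3 of the ligands lie near each other. On GRCm39 the annotation places Ereg on chromosome 5 from 91222157 to 91241505 and Areg from 91287451 to 91296291, both on the plus strand. Btc lies on the same chromosome from 91505120 to 91550883, on the minus strand. The start of Areg is 65.3 kb from that of Ereg and 263.4 kb from that of Btc. Within this stretch the direction was mixed, with Ereg and Btc higher and Areg, between them, lower in Nfkbiz KO. Of 42 other annotated genes starting within 500 kb of 1 of these 3, 6 were tested. Of these 6, 3 changed, all downwards, where 36.6% of all genes tested changed and 18.4% fell. The 3 were the chemokine genes Cxcl5 and Cxcl1 and the metabolic enzyme gene Mthfd2l. Cxcl5 had 57, 71 and 79 reads in Ctrl and 1, 0 and 2 reads in Nfkbiz KO. The ratio of its depth-scaled counts, Ctrl over Nfkbiz KO, was 69.6 (95% exact interval 23.5 to 340.02, counting error only, adjusted p = 9.71e-07 by edgeR). Cxcl1 stood at 163.3, 204.3 and 179.2 TPM in the Ctrl samples and at 122, 111.3 and 132.5 TPM in the Nfkbiz KO samples, with a log2 fold change of -0.67 (adjusted p = 2.82e-05 by edgeR). Mthfd2l had a log2 fold change of -0.35 (adjusted p = 0.00646 by edgeR).

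**Figure D4:**
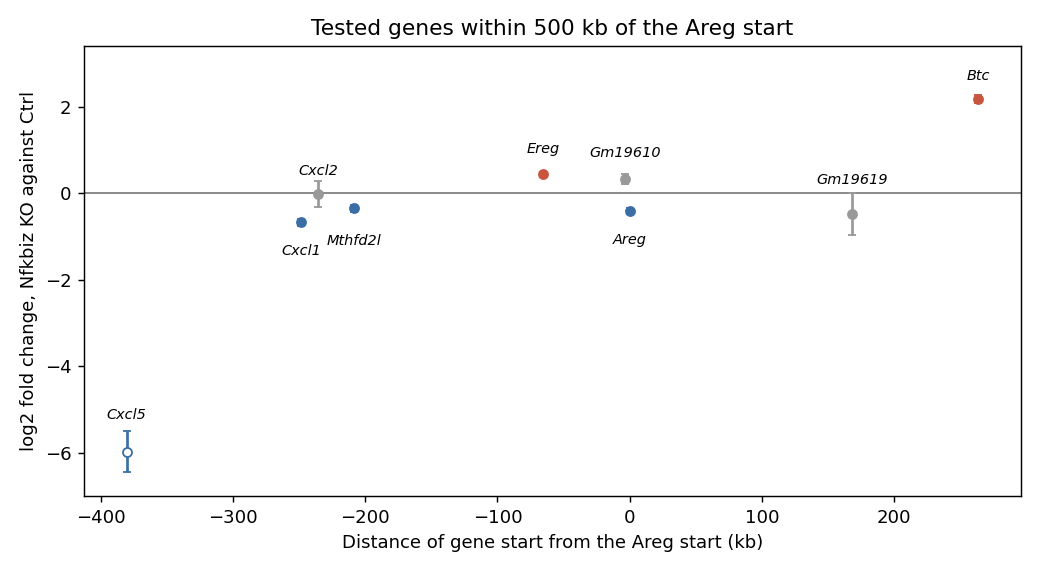
Log2 fold change with its standard error of each tested gene whose start lies within 500 kb of the Areg start, against the distance in kb. Red marks genes that rose, blue genes that fell and gray genes with an adjusted p above 0.05. Btc, at 263.4 kb, and Cxcl5, at -380.3 kb, lie farthest from 0 in opposite directions, and the open symbol marks that the fitted value of Cxcl5 rests on 3 reads in Nfkbiz KO.

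The other genes lie apart. Tgfa is on chromosome 6 (86172041 to 86252728), Egfr and Erbb2 are on chromosome 11 (16702198 to 16868158 and 98303203 to 98328542), Erbb3 is on chromosome 10 (128403392 to 128425811), Errfi1 on chromosome 4 (150938376 to 150955402), Nrg1 on chromosome 8 (32303906 to 33374825) and Hbegf on chromosome 18 (36637980 to 36649677). Around all 10 genes together, 113 other genes within 500 kb were tested and 41 changed (36.3%), close to the 36.6% among all genes tested. Of the 113, 9 were changed with a fold change above 2, against 5.92% of all genes tested. The named ones besides Cxcl5 were Csf3, Nr1d1 and Plxdc1 near Erbb2, Mxd1 near Tgfa, Nrg2 near Hbegf, Mmp19 near Erbb3 and Per3 near Errfi1. Csf3, the gene of the cytokine G-CSF, had 49, 47 and 39 reads in Ctrl and 2, 2 and 6 reads in Nfkbiz KO (log2 fold change -3.76, adjusted p = 2.27e-05 by edgeR). The log2 fold changes of Mxd1, Nr1d1, Plxdc1, Per3 and Mmp19 were 1.41, 1.35, 1.15, 1.09 and -1.17.

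Reads were counted without regard to strand, so that reads of overlapping genes on the opposite strand cannot be told apart from those of a gene. Areg and Btc had no overlapping annotated gene, while the other 8 had at least 1. Ereg is overlapped by the long noncoding RNA Gm19610 on the opposite strand, which had 392, 490 and 384 reads in Ctrl and 429, 521 and 691 reads in Nfkbiz KO, against 3151 to 5977 reads on Ereg. Egfr is overlapped by the noncoding Eldr, which had 197, 253 and 305 reads in Ctrl and 229, 292 and 295 reads in Nfkbiz KO, more than Egfr itself. The log2 fold change of Eldr was 0.09 (adjusted p = 0.579 by edgeR), while Egfr fell. Over the 10 genes, between 99.8% and 100% of the reads mapped uniquely.

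A search of promoter sequences of RefSeq (GRCm38.p6) is reported for 6 of the 10 genes, in 7 entries. None is reported for Ereg, Hbegf, Erbb3 and Nrg1, which shows neither that RefSeq lacks entries for them nor that they hold no match. Of the genes that changed, Btc, Areg, Tgfa and Egfr are shown because they moved in opposite directions. Each sequence gives the 250 bases before the annotated start in the direction of transcription, 5′ to 3′, and capitals mark matches to the kappa-B consensus. On GRCm38.p6 they are chr5:91402995-91403244 (minus strand) for Btc, chr5:91139349-91139598 for Areg, chr6:86194972-86195221 for Tgfa and chr11:16751953-16752202 for Egfr (the last 3 on the plus strand).
Btc: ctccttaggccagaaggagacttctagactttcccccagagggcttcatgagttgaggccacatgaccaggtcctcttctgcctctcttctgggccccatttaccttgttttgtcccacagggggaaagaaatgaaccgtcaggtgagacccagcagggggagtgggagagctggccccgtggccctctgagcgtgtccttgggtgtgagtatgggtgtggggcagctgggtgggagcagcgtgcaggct
Areg: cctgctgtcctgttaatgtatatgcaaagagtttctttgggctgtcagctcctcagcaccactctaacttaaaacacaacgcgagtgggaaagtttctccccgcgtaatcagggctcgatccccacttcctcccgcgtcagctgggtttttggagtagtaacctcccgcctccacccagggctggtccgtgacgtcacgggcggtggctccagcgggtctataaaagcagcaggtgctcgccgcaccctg
Tgfa: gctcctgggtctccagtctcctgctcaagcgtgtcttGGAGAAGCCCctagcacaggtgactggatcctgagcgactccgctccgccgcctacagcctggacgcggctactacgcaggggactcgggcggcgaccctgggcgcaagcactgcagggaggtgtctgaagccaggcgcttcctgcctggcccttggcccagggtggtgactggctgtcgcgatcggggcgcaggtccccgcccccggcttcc
Egfr: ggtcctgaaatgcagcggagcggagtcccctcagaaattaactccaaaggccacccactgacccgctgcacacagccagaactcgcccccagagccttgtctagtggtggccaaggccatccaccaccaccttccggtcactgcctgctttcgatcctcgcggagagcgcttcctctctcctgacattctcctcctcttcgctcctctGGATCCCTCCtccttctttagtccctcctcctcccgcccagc

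The search covered 250 bases before to 50 bases after the start on both strands. Tgfa and Egfr, which fell, had matches to the kappa-B consensus. Areg, which also fell, had none in this window, nor had Btc, which rose, nor Erbb2 and Errfi1, which were not called. In Tgfa the first bases of the matches lay at -213, 22 and 23 from the start, the last pair overlapping, and in Egfr at -42 and 36. Of all 32851 promoters of the same length, 26.8% held such a match, against 2 of these 6 genes. The STAT motif TTCNNNGAA and the AP-1 motif TGANTCA, held by 8.3% and 7.81% of all promoters, matched none of the 6 genes. A match is a description of these letters and shows no binding.

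The genes whose CPM values over the 6 samples followed Btc most closely were Ifit3, Rgs16 and Oasl2, with Pearson's r of 0.9998, 0.9994 and 0.9992 on the log2 scale. Ifit3 and Oasl2 are induced by interferon, and Rgs16 limits signaling of G protein-coupled receptors. Their own log2 fold changes were smaller than that of Btc, at 1.26, 0.51 and 0.55. For Tgfa, the closest were 4930478M13Rik, Chst15 and Mgat3, with r of 0.9994, 0.9994 and 0.9986 and log2 fold changes of -0.97, -0.71 and -0.81. Chst15 and Mgat3 encode enzymes that modify sugar chains. The 6 samples form 2 groups, a split that every gene differing between the groups shares, and these values are a description only.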

How the data were processed

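RNA of 3 Ctrl and 3 Nfkbiz KO samples of D4M-3A cells was sequenced in paired-end mode. Read mapping by the authors was run in CLC Genomics Workbench, counting both strands and allowing several hits per read. The study's text names GRCm39, whereas the submitters' processing notes list GRCm38, and the deposited tables hold no coordinates. In the deposited tables the authors give raw read counts per gene (total and uniquely mapped), and TPM and RPKM based on exons, written with decimal commas that were converted. TPM is divided by length and depth, and read counts also include reads outside exons, so that fold changes of both can differ.

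Total gene reads (32219900 to 44927203 per sample) were tested with edgeR 4.0.16 in R 4.3.3, with TMM factors, filterByExpr at its defaults (minimum count 10, minimum total count 15) and the quasi-likelihood test. P values of the 14419 remaining genes were adjusted by Benjamini-Hochberg. The standard error is the log2 fold change divided by the square root of F. The sources name a t-test in general and no test suited to counts, so that edgeR was chosen. The difference cut-off of 4 has no unit in the methods and was taken in TPM. Samples are described as independent experiments. The spread of counts within groups exceeded counting noise (chi-square per degree of freedom 3.41 to 65.9), so no 2 samples were duplicates. Samples with the same number did not deviate together (correlations 0.037, -0.023 and 0.026). The procedure was run on simulated data in which a small part of the genes changed, each by a fold change of 2 or more. This does not cover smaller changes.

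Genes named are the 10, the 3 largest changes per pathway list, up to 8 neighbours with a fold change above 2, and the 3 genes most like Btc and Tgfa. Other genes, among them Etv4, Dusp6, Spred2, Adam10, Rhbdl2, Mthfd2l and Cxcl1, were named after their values were seen. The members and lists were chosen with earlier results of these data known. Positions come from GENCODE vM39 on GRCm39, matched by symbol. Alternatives were DESeq2 1.42.0, limma 3.58.1 on log2(TPM + 1) and log2(TPM + 0.1), edgeR's likelihood-ratio test, other scalings and filters, uniquely mapped reads, a replicate block and each sample left out. Figures were drawn with matplotlib in Python.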

Additional observations from a re-analysis of the deposited data

How the results depend on the processing

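The 6 genes called changed kept their direction under the alternatives, and the count was 5 to 7 in all of them. The size of the Tgfa decrease depended on the scale. Its log2 fold change was -3.01 from read counts, -1.40 on log2(TPM + 1) and -2.62 on log2(TPM + 0.1). On log2(TPM + 1) and log2(TPM + 0.1) limma called 5, because Egfr, with log2 fold changes of -0.33 and -0.85, was not called (adjusted p = 0.0568 and 0.0521). Leaving out single samples gave 6 to 7, and the count past the study's thresholds stayed at 1. Omitting the difference cut-off, or using the less stringent limits of 1.5 for the fold change and 0.1 for the adjusted p without it, gave 3. Among genes that were not called, the log2 fold change of Nrg1 turned to 0.0856 and 0.127 on the 2 TPM scales and ranged from -0.156 to 0.0462 with a sample left out (the latter without Ctrl replicate 1), and that of Erbb2 turned to 0.0309 and 0.0321 on the TPM scales. The count of changed pathway genes, 21, was 13 and 12 on the 2 TPM scales and 13 to 25 with a sample left out. The difference in the share of Areg, -16.5 percentage points, stayed between -17.6 and -15.3, and that of Btc, 6.75, between 6.32 and 7.08. RPKM gave the same shares by construction. With the replicate number as a block, 6 genes and 19 pathway genes were changed. No label says that a number marks a shared source. The cause of these shifts was not tested. Low counts limit Erbb3 and the precision for Tgfa and Egfr.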
